A study of Mus musculus with 9 samples.

Results

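10 genes of the circadian clock and its output, taken by symbol from the deposited table, were followed in white gastrocnemius, a calf muscle, of mice lacking acid alpha-glucosidase (Gaa) and of wild-type mice. They are Arntl, Per1, Per2, Per3, Cry2, Nr1d1, Dbp, Hlf, Tef and Rora, 10 of 18062 genes in the table, and all 10 were found there on 13 transcript lines whose values were summed per gene. Loss of Gaa, which degrades glycogen in lysosomes, models Pompe disease. The knock-out arm has 5 libraries, ko1 to ko5, all labelled GAA knock-out and 5 months old. The wild-type arm has 4 libraries, wt1 to wt4, of which 2 are labelled 5 months old and 2 are labelled 6 months old. Column names do not say which are which, so age differs in part between the arms. All mice were labelled as of mixed background, BL6/129j, and the knock-out colony disrupts exon 6 of Gaa, with LOX P sites in introns 5 and 6, in a line inbred by brother-sister mating (over 20 generations). The labels number the libraries without naming animals, so p-values measure the spread between libraries, which may be technical.

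The clock of mammalian cells is a loop of transcription factors. Arntl (BMAL1) pairs with CLOCK and activates the Per and Cry genes, whose proteins then repress that pair, while Nr1d1 (REV-ERB alpha) represses Arntl and Rora activates it through a shared element. Dbp, Hlf and Tef are related basic leucine zipper factors that carry the rhythm to output genes, and skeletal muscle has such a clock of its own. The hour of tissue collection is not given in the sources used here, and each library is 1 time point, so a change in level and a change in the timing of a rhythm cannot be told apart.

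Upstream sequence is shown for 4 members in which a fixed clock or stimulus motif was found before the start site. Sequences are from RefSeq promoter windows of build GRCm38.p6, which is not the mm9 build of the deposited values. They are written 5′ to 3′ on the strand of the gene, and capitals mark the match. By symbol, 9 of the 10 members matched 12 windows of the RefSeq table, with 2 starts each for Arntl, Per1 and Tef, and Per2 was not matched.
Tef, second start, chr15:81811241-81811316, plus strand, E-box: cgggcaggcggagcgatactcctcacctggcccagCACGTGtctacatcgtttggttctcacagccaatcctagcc
Per1, first start, chr11:69098748-69098823, plus strand, E-box: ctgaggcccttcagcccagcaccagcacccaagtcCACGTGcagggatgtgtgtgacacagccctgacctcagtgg
Per3, chr4:151044781-151044905, minus strand, a pair of D-boxes: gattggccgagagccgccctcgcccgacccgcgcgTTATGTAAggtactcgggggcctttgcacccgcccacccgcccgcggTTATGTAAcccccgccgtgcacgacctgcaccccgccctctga
Hlf, chr11:90390918-90390961, minus strand, cAMP response element: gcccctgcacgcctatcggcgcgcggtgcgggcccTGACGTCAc

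The E-box, CACGTG, is the element bound by the ARNTL and CLOCK pair. It was found in 3 of the 12 windows of these 9 members, and in 7.15% of all 32851 windows of the table. The matches lay at -138 from the second start of Tef, at -127 from its first start and at -166 from the first start of Per1. All 250 bases before the first start of Tef lie in exon sequence of Tef in the GRCm38 annotation. The D-box, searched as TTATGTAA or TTACGTAA, is the element of Dbp, Hlf and Tef, and it was found at -205 and -158 in Per3 and in 1.06% of all windows. The related letters CACGTT were found on the opposite strand in Cry2 at -166 and in Nr1d1 at -28, and in 4.68% of all windows. The ROR element was found as AAGTAGGTCA at 27 bases past the second start of Arntl and in 0.219% of all windows. The cAMP response element, TGACGTCA, lay at -9 in Hlf and in 1.79% of all windows. The palindromic glucocorticoid element was in none of the 12 windows and in 0.475% of all windows. Both strands were searched over windows of 300 bases, and a match is a description of letters, not of binding.

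Values are read numbers divided by transcript length and by library size (RPKM). Low values move in steps of 1 read, and from these steps 1 RPKM over 1 kilobase was worth 17.6 to 37.3 reads in the 5 knock-out libraries, lowest in ko3, with 37.0 to 64.1 reads in wt1 to wt4. At this depth Arntl rested on an estimated 62 to 124 reads per knock-out library and 160 to 257 per wild-type library, and Tef on 6428 to 18187 reads over all 9 libraries. Gaa ranged from 3.11 to 3.64 RPKM in ko1 to ko5 and from 46.0 to 56.0 RPKM in wt1 to wt4, as the labels call for. The 11 listed muscle fibre genes, not all of them restricted to fast fibres, summed to 102000 to 124000 RPKM per library. The genes were compared with limma on log2(RPKM + 0.1) over all 11032 genes whose mean reached 0.5 RPKM, and p-values were adjusted over all of them by the Benjamini-Hochberg method. A gene is said to have risen or fallen where the adjusted p was below 0.05. All differences are knock-out minus wild-type on that log2 scale, where changes of low genes are understated.

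Among the 10 members, Tef and Per3 rose, Hlf, Rora and Arntl fell, and Per1, Per2, Cry2, Nr1d1 and Dbp did not pass the test. Of all genes tested, 37% rose and 14.8% fell, so the share of members that changed is close to the 51.8% of all genes that did. All 5 knock-out values lay above all 4 wild-type values for 1 member, Tef, and below them for 3, Hlf, Rora and Arntl, where 30.9% and 11.4% of all genes did so. The median difference was -0.18 over the members and 0.12 over all genes. With each library centred on its median gene, 2 members were higher and 5 lower, the latter with Per1 and Nr1d1 added, where 25.1% and 25% of all genes were higher and lower.

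**Figure D1:**
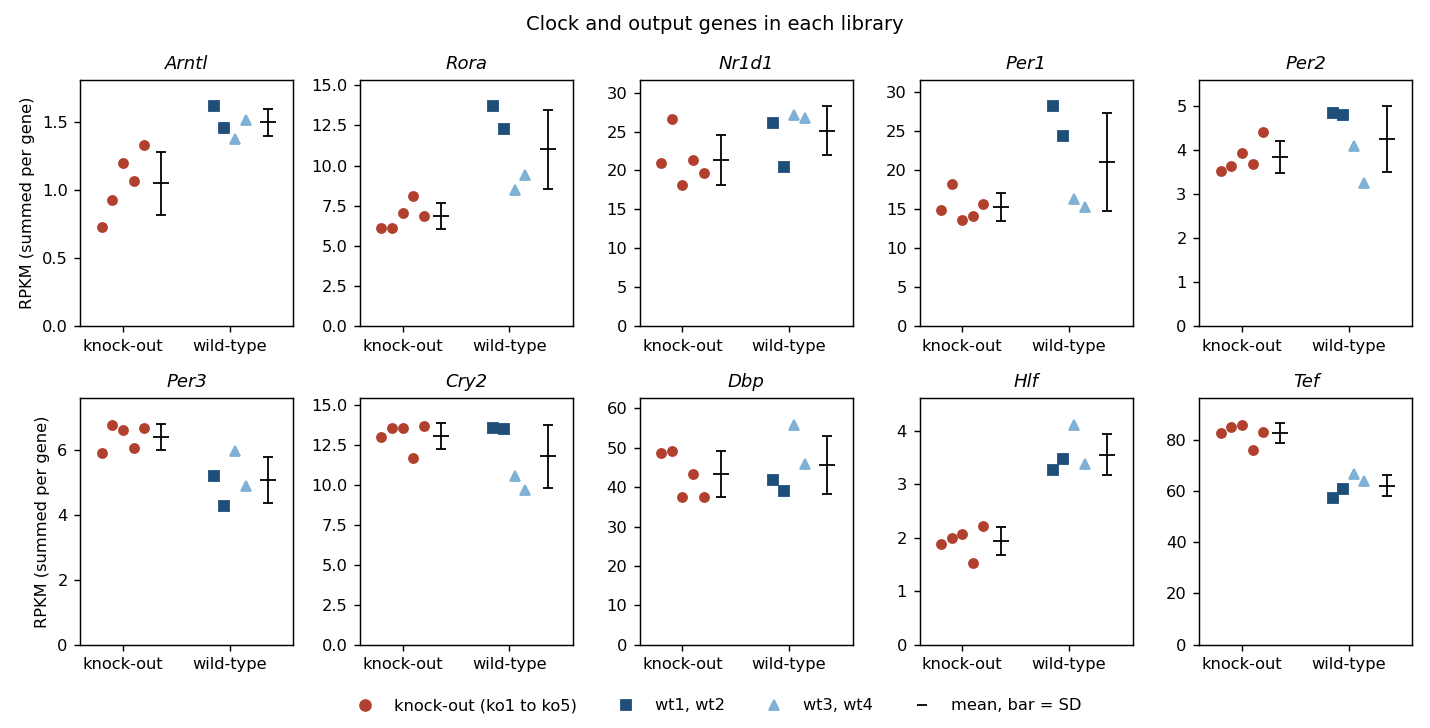
RPKM of each of the 10 genes (vertical axis, from 0) in the 5 knock-out libraries (circles) and the 4 wild-type libraries (squares for wt1 and wt2, triangles for wt3 and wt4), with the mean and SD of each genotype. Tef lies higher and Hlf, Rora and Arntl lie lower in all 5 knock-out libraries, and Per1 at 28.2 and 24.4 RPKM in wt1 and wt2 stands apart from all other libraries.

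Among the activators of the loop, Arntl and Rora fell and Clock did not pass the test. Arntl, the partner of CLOCK, was at 0.733, 0.927, 1.20, 1.07 and 1.33 RPKM in ko1 to ko5 and at 1.62, 1.46, 1.38 and 1.52 RPKM in wt1 to wt4. The groups did not overlap, but ko5 came close to wt3, and the knock-out libraries spread more widely than the wild-type ones. Arntl fell 1.41-fold (log2 difference -0.49, SE 0.15, limma adjusted p = 0.0151). Without wt1 and wt2 the difference was -0.45 and the adjusted p 0.0805.

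Rora, the nuclear receptor that activates Arntl, was at 6.13, 6.13, 7.06, 8.08 and 6.88 RPKM in ko1 to ko5 and at 13.7, 12.3, 8.47 and 9.40 RPKM in wt1 to wt4. The highest knock-out library, ko4, lay just under wt3, while wt1 and wt2 were far above. The fall was 1.57-fold (log2 difference -0.65, SE 0.14, limma adjusted p = 0.00187). Its size depended on the wild-type libraries kept: it was -0.92 when wt3 and wt4 were left out and -0.38 when wt1 and wt2 were, and passed the test both times. Clock, the partner of Arntl, had a knock-out mean of 3.25 ± 0.24 RPKM (SD, n = 5) and a wild-type mean of 3.15 ± 0.274 (SD, n = 4), a log2 difference of 0.05 as deposited and -0.08 with centring (limma adjusted p = 0.664 and 0.452).

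The repressor Nr1d1 was at 20.9, 26.6, 18.1, 21.3 and 19.7 RPKM in ko1 to ko5 and at 26.1, 20.4, 27.1 and 26.7 RPKM in wt1 to wt4. One library of each genotype lay among those of the other, ko2 high and wt2 low. The log2 difference was -0.23 (SE 0.11, limma adjusted p = 0.103). It passed the test without ko2 (adjusted p = 0.018), without wt2 (0.0228) or without both wt1 and wt2 (0.0396). It also passed with centring (0.0129), quantile normalization (0.00825) or a trend against transcript length removed (0.00664). Exons of Nr1d1 share 263 bases with Thra on the other strand in the GRCm38 annotation, and how counting treated strand is not stated, so reads of those bases cannot be assigned to either gene. Thra itself fell from 17.6 to 14.2 RPKM (limma adjusted p = 0.00635). Nr1d2, the paralog of Nr1d1 with the same role, had a knock-out mean of 24.4 ± 2.51 RPKM and a wild-type mean of 26.2 ± 2.01. It did not pass the test as deposited (limma adjusted p = 0.294), but was lower with centring (0.0331) or quantile normalization (0.0156).

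The Per and Cry genes, the repressors of the loop, did not move alike. Per3 was at 5.91, 6.79, 6.62, 6.06 and 6.68 RPKM in ko1 to ko5 and at 5.2, 4.29, 5.96 and 4.89 RPKM in wt1 to wt4. Only wt3 reached into the knock-out range, where it lay above ko1. Per3 rose 1.26-fold (log2 difference 0.34, SE 0.09, limma adjusted p = 0.00834), and without wt1 and wt2 the difference was 0.24 with an adjusted p of 0.0673.

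Per1, a repressor that is also induced within minutes of many stimuli, was at 14.9, 18.2, 13.6, 14.1 and 15.7 RPKM in ko1 to ko5 and at 28.2, 24.4, 16.3 and 15.3 RPKM in wt1 to wt4. Libraries wt3 and wt4 lay within the knock-out range, and wt1 and wt2 lay well above it. The log2 difference was -0.42 (SE 0.17, limma adjusted p = 0.0546). With wt3 and wt4 left out it was -0.78 (adjusted p = 0.000199), and with wt1 and wt2 left out it was -0.05 (0.726). It also passed the test without ko2 (0.0417), wt3 (0.0238) or wt4 (0.0131). The same held with centring (0.0226), quantile normalization (0.0124) or a trend against transcript length removed (0.041). In both transcripts of Per1 in the table wt1 was the highest library and wt2 the next, while wt3 and wt4 changed places: in wt1 to wt4, NM_011065 had 14.9, 13.2, 9.53 and 8.0 RPKM and NM_001159367 had 13.3, 11.2, 6.76 and 7.27 RPKM.

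Per2 was at 3.51, 3.62, 3.93, 3.68 and 4.41 RPKM in ko1 to ko5 and at 4.84, 4.78, 4.08 and 3.24 RPKM in wt1 to wt4. The wild-type libraries spanned the whole knock-out range, with wt4 the lowest of all 9. The log2 difference was -0.13 (SE 0.12, limma adjusted p = 0.375), and -0.25 without wt4 (adjusted p = 0.0494). It was -0.33 (0.0197) when wt3 and wt4 were left out and turned to 0.07 when wt1 and wt2 were.

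Cry2, which represses ARNTL and CLOCK together with the PER proteins, was at 13.0, 13.6, 13.6, 11.7 and 13.7 RPKM in ko1 to ko5 and at 13.6, 13.5, 10.6 and 9.71 RPKM in wt1 to wt4. Here wt1 and wt2 lay within the knock-out range and wt3 and wt4 below it. The log2 difference was 0.16 (SE 0.10, limma adjusted p = 0.201), 0.37 without wt1 and wt2 (adjusted p = 0.00417) and -0.05 without wt3 and wt4. One transcript, NM_009963, held nearly all of the Cry2 value, with 12.9 RPKM in the knock-out against 0.257 for NM_001113333. The paralog Cry1 had a knock-out mean of 2.84 ± 0.292 RPKM and a wild-type mean of 3.36 ± 0.416 (log2 difference -0.23, limma adjusted p = 0.0734). Cry1 passed the test with centring (-0.36, adjusted p = 0.0107), quantile normalization (0.00936) or the length trend removed (0.00905), and without ko5 (0.0485), wt4 (0.0222) or both wt3 and wt4 (0.0486).

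**Figure D2:**
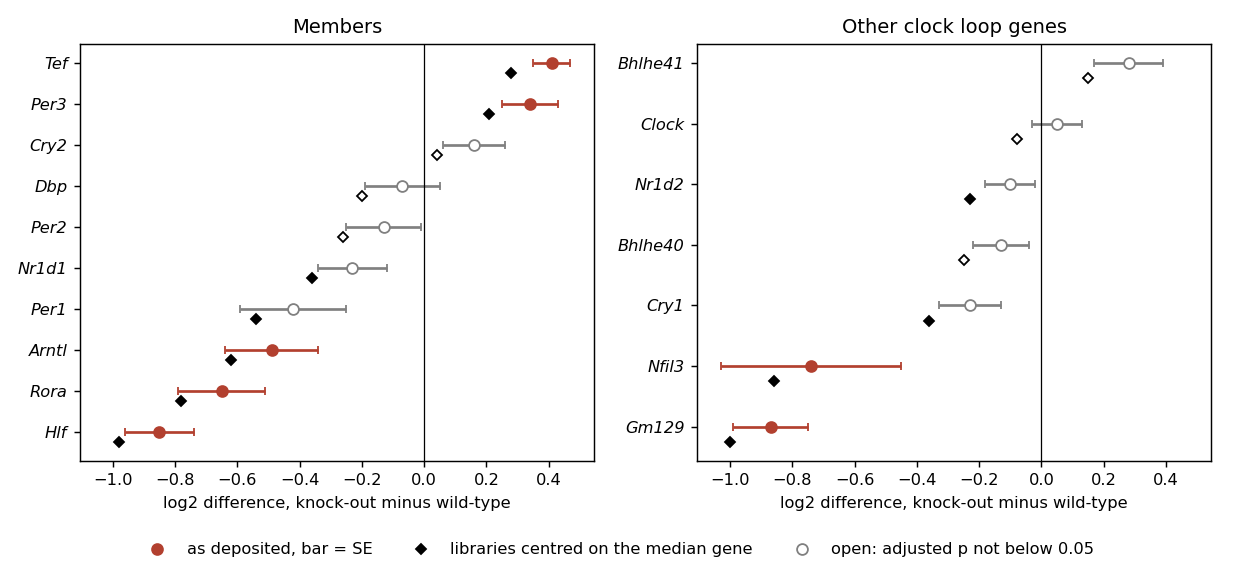
Log2 difference, knock-out minus wild-type (horizontal axis), of the 10 members and of the 7 other clock loop genes that passed the expression filter, as deposited (circles, bar = SE) and with libraries centred on the median gene (diamonds), filled where the adjusted p was below 0.05. Hlf at -0.85 and Gm129 at -0.87 are the lowest in their panels, and Tef at 0.41 is the highest member.

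The 3 output factors of the leucine zipper family went separate ways. Hlf was at 1.88, 1.99, 2.07, 1.52 and 2.22 RPKM in ko1 to ko5 and at 3.27, 3.48, 4.12 and 3.38 RPKM in wt1 to wt4. The genotypes were separated by a wide gap. Hlf fell 1.81-fold (log2 difference -0.85, SE 0.11, limma adjusted p = 6.47e-05).

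Tef, the most abundant member per length of transcript, was at 83.0, 85.0, 86.1, 76.2 and 83.3 RPKM in ko1 to ko5 and at 57.3, 60.7, 66.9 and 63.9 RPKM in wt1 to wt4. Here too the genotypes were apart, in the other direction. Tef rose 1.33-fold (log2 difference 0.41, SE 0.06, limma adjusted p = 0.000114). Its 2 transcripts, which share most of their sequence and differ at the start, were both higher in every knock-out library. NM_017376 was at 42.5 ± 4.89 RPKM (SD, n = 5) against 32.9 ± 0.892 (SD, n = 4), and NM_153484 at 40.2 ± 5.49 against 29.4 ± 3.81. The share of NM_153484 in the Tef value ran from 40.9% in ko2 to 56.2% in ko5 and from 43.7% to 50.0% in the wild type, so the genotypes overlapped in it.

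Dbp was at 48.8, 49.3, 37.4, 43.4 and 37.5 RPKM in ko1 to ko5 and at 41.7, 39.0, 55.9 and 46.0 RPKM in wt1 to wt4. The genotypes overlapped over most of their range. The log2 difference was -0.07 (SE 0.12, limma adjusted p = 0.615), and it turned to 0.03 without wt3. With a trend against transcript length removed from each library it was -0.28 (adjusted p = 0.0314). Dbp shares 539 exon bases with Sphk2 on the other strand, and Arntl, Cry2, Tef and Rora share 33 to 295 bases with non-coding genes on the other strand.

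The order of the members by level per length was Tef, Dbp, Nr1d1, Per1, Cry2, Rora, Per3, Per2, Hlf and Arntl by the mean in both genotypes. In the wild type Tef at 62.2 ± 4.13 RPKM, Dbp at 45.7 ± 7.38 and Nr1d1 at 25.1 ± 3.17 did not overlap. Below them Nr1d1 and Per1 (21 ± 6.28), Cry2 (11.8 ± 2.0) and Rora (11 ± 2.45), Per3 (5.08 ± 0.697) and Per2 (4.24 ± 0.746), and Per2 and Hlf (3.56 ± 0.382) overlapped. In the knock-out the ranges of Nr1d1 and Per1, and of Per1 and Cry2, met at their edges. There Rora at 6.85 ± 0.805 RPKM overlapped with Per3 at 6.41 ± 0.397, and Hlf at 1.94 ± 0.266 lay below Per2 at 3.83 ± 0.36 with no overlap.

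The wild-type libraries differed among themselves in several members. Both wt1 and wt2 lay above wt3 and wt4 in 4 members, Per1, Per2, Cry2 and Rora, and below them in 3, Nr1d1, Dbp and Tef, where 16.1% and 39.6% of all genes tested did so. Whether these pairs are the 2 ages cannot be told from the column names. Of 15 immediate early genes tested, which respond within minutes to stimulation, 13 had both wt1 and wt2 above wt3 and wt4, and none had both below. On the log2(RPKM + 0.1) scale the list mean was 3.58 in wt1, 3.08 in wt2, 1.42 in wt3 and 1.33 in wt4, and the knock-out libraries lay between, at 2.58 to 2.86. Fos, for example, had 18.0, 9.88, 0.85 and 1.29 RPKM in wt1 to wt4, with 3.17 to 4.82 RPKM in the knock-out. In this list 3 genes rose, Ier3, Jun and Egr3, and none fell, where 37% and 14.8% of all genes did. The median difference was 0.24. The calls of Jun and Egr3 were lost with single libraries left out, such as wt2 for Jun (adjusted p = 0.0513) and wt3 for Egr3 (0.0703), and that of Jun also with centring (0.0834). The rise of Egr3 (log2 difference 1.82) rests on wt3 and wt4, at 0.109 and 0.0444 RPKM. Without them the difference was 0.35 (limma adjusted p = 0.133). The part of the immediate early difference among wild-type libraries in the values of Per1, Per2, Cry2 and Rora was not tested. Hlf, Tef and Rora passed the test in the same direction whichever of these pairs was left out, and 3 members, Hlf, Rora and Nr1d1, fell without wt1 and wt2 (13.5% of all genes). Without wt3 and wt4, 5 members fell, Hlf, Rora, Arntl, Per1 and Per2 (12% of all genes).

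**Figure D3:**
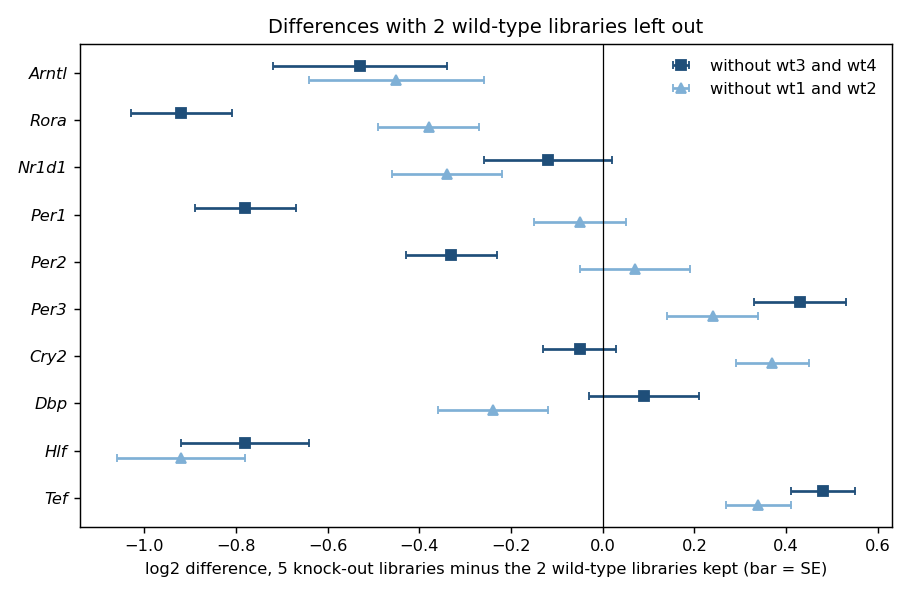
Log2 difference of each member (horizontal axis, bar = SE) between the 5 knock-out libraries and 2 wild-type libraries, wt1 and wt2 (squares, wt3 and wt4 left out) or wt3 and wt4 (triangles, wt1 and wt2 left out). Hlf and Tef stay at a similar value, while Per1 moves from -0.78 to -0.05 and Cry2 from -0.05 to 0.37.

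Of 11 other genes of the clock loop, 7 passed the expression filter, and of these 2 fell and none rose, with a median difference of -0.13. Of all genes, 14.8% fell and 37% rose. With centring 4 were lower, Cry1 and Nr1d2 in addition, and none higher (median -0.25), where 25% and 25.1% of all genes were. Gm129, now named Ciart, a repressor of ARNTL and CLOCK, was at 4.53, 4.87, 3.51, 4.81 and 3.87 RPKM in ko1 to ko5 and at 8.65, 9.12, 7.40 and 6.69 RPKM in wt1 to wt4. It fell 1.83-fold with no overlap (log2 difference -0.87, SE 0.12, limma adjusted p = 8.41e-05), about as far as Hlf. The RefSeq window of Ciart holds 3 E-boxes before the start site, at -116, -58 and -44. That of Cry1, which did not pass the test as deposited, holds an E-box at -60. None was found in the windows of Nr1d2, Nfil3 and Usp2, of which Nfil3 and Usp2 fell. Windows of the other loop genes were not looked up singly, and 7.15% of all windows hold an E-box. A link between E-boxes and these differences was not tested. Nfil3, a repressor that binds the same D-box as Dbp, Hlf and Tef, ranged from 7.21 to 10.7 RPKM in the knock-out, with 22.0, 23.2, 8.83 and 8.71 RPKM in wt1 to wt4. Its fall (log2 difference -0.74, SE 0.29, limma adjusted p = 0.0486) rests on wt1 and wt2, without which the difference was -0.06, and the call was also lost without wt1 (adjusted p = 0.144), wt2 (0.145), ko1 (0.0979), ko2 (0.095), ko4 (0.0809) or ko5 (0.0681).

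The remaining loop genes did not pass the test as deposited. The repressor genes Bhlhe40 and Bhlhe41 were at 28.0 against 30.7 RPKM and at 17.2 against 14.1 RPKM (limma adjusted p = 0.261 and 0.0527). Bhlhe41 was called higher with a filter at a mean of 2 RPKM (limma adjusted p = 0.0489). It was also called higher without ko5 (0.0153), wt3 (0.0461) or both wt3 and wt4 (0.0276). Bhlhe40 was called lower with quantile normalization (0.0111), the length trend removed (0.0493) or wt3 and wt4 left out (0.0401). Npas2, Arntl2, Rorb and Timeless were below the filter, with Rorb at no more than 0.0201 RPKM in any library.

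Among 10 tested genes for kinases and turnover of clock proteins, 2 fell, none rose and the median difference was -0.06. Of all genes, 14.8% fell and 37% rose. With centring 5 were lower and none higher (median -0.19), where 25% and 25.1% of all genes were. Usp2, a deubiquitinase under clock control, ranged from 36.2 to 41.5 RPKM in ko1 to ko5 and from 52.7 to 60.8 RPKM in wt1 to wt4, and fell 1.42-fold (log2 difference -0.51, SE 0.06, limma adjusted p = 2.8e-05). Gsk3b, a kinase of many targets that include clock proteins, fell from 8.79 ± 0.223 to 6.36 ± 0.157 RPKM (limma adjusted p = 1.84e-05). Neither gene had overlapping genotypes.

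Of 16 tested genes described as clock-controlled in muscle or other tissues, 4 rose and 1 fell, with a median difference of 0.05. With centring 4 were higher and 4 lower (median -0.07), so the balance of directions depended on the scaling. Of all genes, 37% rose and 14.8% fell, and with centring 25.1% were higher and 25% lower. Those named by the smallest adjusted p were Tsc22d3, which glucocorticoids induce, at 174 ± 20.2 against 112 ± 16.9 RPKM, Por at 7.17 against 5.66, Nampt, an enzyme of NAD salvage, at 37.2 against 28.8, and Ppargc1a, a coactivator of mitochondrial genes and of ROR receptors, which fell to 4.68 ± 0.649 from 6.06 ± 0.262 RPKM. Without wt1 and wt2 the calls of Por and Nampt were lost (adjusted p = 0.0628 and 0.0797), and that of Nampt also with quantile normalization (0.138). With the highest transcript in place of the sum the call of Ppargc1a was lost (0.0606). Of 16 glucocorticoid-induced genes, 4 rose and 4 fell, with a median of -0.04, where 51.8% of all genes changed in either direction. With centring 4 were higher and 5 lower (-0.17). The 4 with the smallest adjusted p were Mstn, the muscle growth inhibitor, which fell to 7.62 from 43.8 RPKM, Cdkn1a, a cell cycle inhibitor, which rose to 15.0 from 3.52, and the metallothioneins Mt1 and Mt2, which rose to 246 from 37.6 and to 357 from 26.8 RPKM. Both metallothioneins split the wild-type libraries. In wt1 to wt4 Mt2 was at 27.5, 66.6, 6.12 and 7.01 RPKM and Mt1 at 41.1, 85.1, 12.9 and 11.4. On the log2(RPKM + 0.1) scale the mean of the glucocorticoid list was 4.26, 4.49, 3.65 and 3.67 in wt1 to wt4. The knock-out libraries were at 4.29 to 4.52. Of its 16 genes, 7 had wt1 and wt2 both above wt3 and wt4, and 4 had both below, where 16.1% and 39.6% of all genes did so.

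Fibre type and other cell types moved with genotype, and their part in the clock gene differences was not tested. In bulk muscle, fewer cells of a type and less RNA per cell cannot be told apart. The counts below stand beside 37% of all genes that rose and 14.8% that fell. With centring 25.1% of all genes were higher and 25% lower. All 8 slow fibre genes rose (median 1.63), with list means of 4.62 to 5.83 (knock-out) and 2.61 to 4.59 (wild-type) on the log2(RPKM + 0.1) scale, and Tnnt1 rose to 57.3 from 14.2 RPKM. All 11 tested macrophage markers rose (median 1.32, summed level 76.6 to 128 RPKM against 30.7 to 39.7), Cd68 to 6.82 from 0.865. Of 11 endothelial markers 6 fell and none rose (median -0.70, summed level 33.4 to 60.5 against 46.6 to 77.2 RPKM), Flt1 to 2.18 from 4.18. All 11 had wt1 and wt2 both below wt3 and wt4, where 39.6% of all genes did so. Their list means were 1.91, 2.15, 2.6 and 2.51 in wt1 to wt4 and 1.42 to 2.23 in the knock-out, highest in ko2. Of 9 adipocyte markers 4 fell and none rose (median -0.47, summed level 270 to 391 against 308 to 473 RPKM), Lep to 1.16 from 4.31. Of 8 fibroblast markers 3 rose and none fell (median 0.36, summed level 291 to 388 against 189 to 279 RPKM), Lum to 28.9 from 8.57. In 7 of these 8 wt1 and wt2 both lay below wt3 and wt4. All 6 tested red blood cell genes fell (median -0.53, summed level 194 to 310 against 352 to 394 RPKM), Alas2 to 0.939 from 1.61, a call that was lost with the highest transcript in place of the sum (log2 difference -0.62, limma adjusted p = 0.072). Of the 11 listed muscle fibre genes 2 rose (median 0.16), Ckm and Mylpf, both of which lost the call with centring. With centring the counts were 7 higher among the slow fibre genes, 9 lower among the endothelial and 6 lower among the adipocyte markers. They were 3 higher with 1 lower among the fibroblast and 11 higher among the macrophage markers. The red blood cell genes had 6 lower and the listed muscle fibre genes 1 lower. In none of these lists was a gene at 0 in all libraries.

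**Figure D4:**
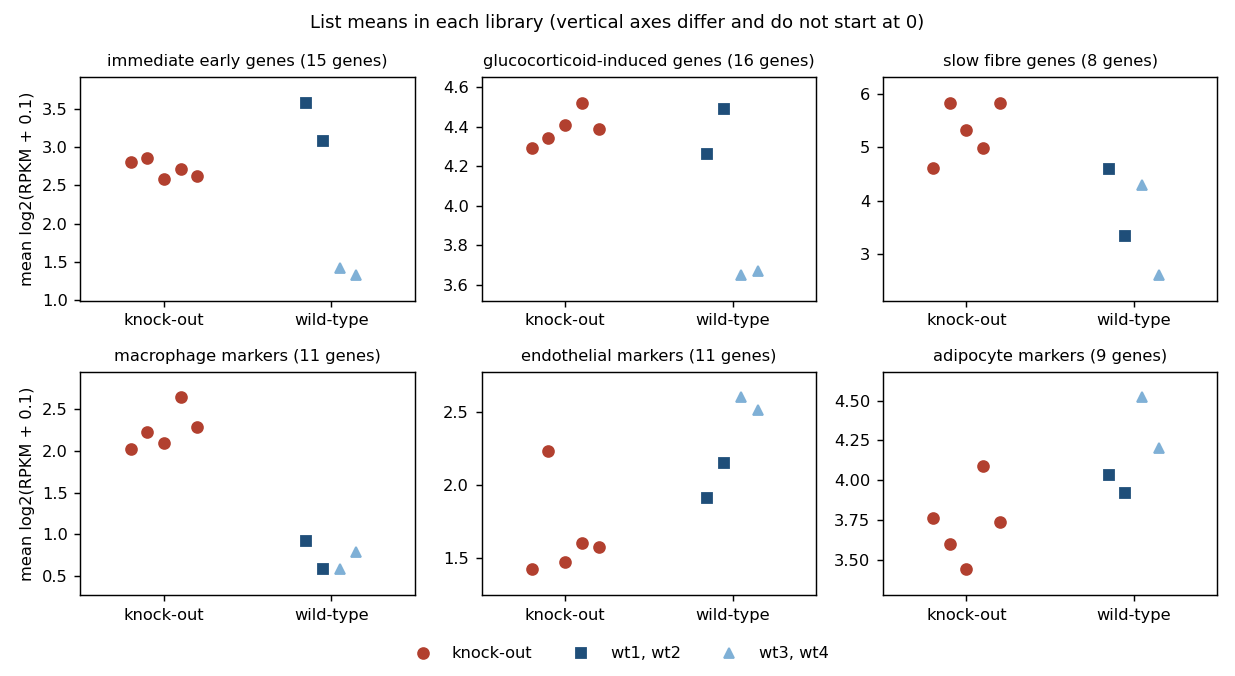
Mean of log2(RPKM + 0.1) over 6 gene lists (vertical axes differ and do not start at 0) in the knock-out libraries (circles), wt1 and wt2 (squares) and wt3 and wt4 (triangles). The immediate early list parts the wild-type libraries, at 3.58 and 3.08 against 1.42 and 1.33, with the knock-out between them. In the glucocorticoid-induced list wt1 and wt2 are also higher (4.26 and 4.49 against 3.65 and 3.67). In the endothelial list they are lower (1.91 and 2.15 against 2.6 and 2.51). The macrophage list parts the genotypes.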

How the data were processed

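The authors deposited 1 table of RPKM values, with a line for each RefSeq transcript and a column for each library. Per the labels' protocols, Trizol was used for extraction and the TruSeq kit for the libraries. Per the submitters' processing notes, the build was mm9 and the tools TopHat 1.3.2, Bowtie 0.12.7.0 and Partek 6.6. What each tool did, and any filter or strand setting, is not stated there.

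The 23665 transcripts were summed to 18062 genes, after 36 of 37 symbols that had become dates were restored by accession. RPKM is not a count, so limma 3.58.1 in R 4.3.3 (eBayes with trend, two-sided) was used on log2(RPKM + 0.1), 5 knock-out against 4 wild-type libraries. The same fit was tried on simulated data with independent libraries, which lack the split of wt1 and wt2 from wt3 and wt4. Depth was estimated from genes with 1 transcript and GENCODE lengths: 72.4% to 75.7% of values up to 5 reads came within 0.1 of a whole read, against 20% by chance. These estimates cover counting error only. Tables and plots used Python 3.11.15, pandas 2.3.3, numpy 2.4.6 and matplotlib 3.10.9.

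The members and lists were chosen with earlier results of these data known. Named were all members, the tested genes of the clock loop list and, from each other list, up to 4 genes with the smallest adjusted p among those past the threshold, of which the text gives a part for cell types. Genes below the filter, Fos, Thra and the overlapping genes were named in addition. The lists held 138 symbols, of which 1 could not be matched, and 1 further gene of the clock loop is not reported here. Alternatives were other pseudocounts, filters, scalings, variance models and transcript choices, and leaving out libraries.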

Additional observations from a re-analysis of the deposited data

Results flagged for a closer look

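A single library stood far from the rest of its genotype in 5 of 112 sets of 4 or 5 libraries examined, by the gap to its nearest neighbour relative to the range (Dixon's 95% critical value). Chance flags about 1 in 20 such sets. Nr1d1 was at 20.4 RPKM in wt2 and at 26.1 to 27.1 in the other wild-type libraries. Trem2, a macrophage marker, was at 0.777 RPKM in ko3, the shallowest library, and at 1.3 to 1.5 in the other knock-out libraries. Esam, an endothelial marker, was at 7.41 RPKM in ko2 and at 4.32 to 4.85 in the others. Cidec, an adipocyte gene, was at 8.39 RPKM in ko4 and at 4.34 to 5.03 in the others. Hbb-b1, a haemoglobin gene, was at 25.6 RPKM in wt4 and at 30.2 to 31.0 in the other wild-type libraries.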

How the results depend on the processing

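Over 21 alternatives, Hlf, Tef and Rora kept their direction and call, and 2 members rose in every one, Tef and Per3, except that Cry2 took the place of Per3 without wt1 and wt2. Arntl lost its call in 1 of 20 (it is below a mean of 2 RPKM) and Per3 in 1 of 21. The 3 members that fell became 5 with centring, 5 with quantile normalization, 6 with the length trend removed and 5 without wt3 and wt4, and 3 to 5 with single libraries left out, the most without ko2 or wt4. Over all genes, 4081 higher became 2644 with quantile normalization and 2517 with the length trend removed, and 1632 lower became 2758 with centring, 3056 with quantile normalization and 2856 with the length trend removed. Differences that turned in sign were those of Per2 (0.07 without wt1 and wt2), Cry2 (-0.05 without wt3 and wt4), Dbp (-0.14 to 0.03 with single libraries left out, turning without wt3, and 0.09 without wt3 and wt4), Clock (-0.08 with centring, -0.10 with quantile normalization, -0.02 to 0.08 with single libraries left out, turning without wt3, -0.04 without wt3 and wt4), Bhlhe40 (0.01 without wt1 and wt2) and Mylpf (-0.07 with the length trend removed). The cause was not tested. Nfil3 also lost its call with no filter (adjusted p = 0.115), without the variance trend (0.0676), with robust estimation (0.11) and with the highest transcript (0.0549). No paired analysis was possible because the wild-type value columns carry no label that ties them to a replicate number. Arntl has the fewest reads of the members, which limits its precision.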
